A study of Homo sapiens with 6 samples.

Results

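The genes described here code for 9 signalling proteins that epithelial cells secrete or display: the chemokines CXCL1, CXCL2, CXCL3, CXCL5, CXCL8, CXCL16 and CCL20 and the cytokines IL18 and LIF. They were chosen by symbol from a deposited table of 36651 genes, which held a row for 8 of the 9. CXCL5 (ENSG00000163735.6) had no row and was not analysed here. Their transcripts were compared between HCT116 cells labelled siMTA1 (3 libraries) and HCT116 cells labelled control (3 libraries). HCT116 is an epithelial line grown from a human colorectal carcinoma, and the labels name no other allele, agent or time for either group. MTA1, named for its association with metastasis, is a component of the chromatin-modifying NuRD complex. The design text speaks of siMTA1, while the titles of the treated samples carry the unexplained abbreviation CrMTA1. All 6 sample descriptions also carry the mark 3rd, which is not explained. Control samples are also titled as wild type, and the sources used here do not say what they received. The labels do not say that the libraries of a group came from separate cultures, so p-values measure the spread between these libraries, which may be technical.

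Chemokines are small secreted proteins that guide leukocytes along a gradient by binding receptors of the G protein-coupled class. CXCL1, CXCL2, CXCL3, CXCL5 and CXCL8 (also called interleukin 8) carry an ELR motif, glutamate, leucine and arginine, ahead of their first cysteines. They attract neutrophils through the receptor CXCR2, and CXCL8 also through CXCR1. In gut epithelium these genes are known targets of NF-kB, are induced by bacterial products and by interleukin 1, and have messages rich in AU elements that shorten their lives. Tumour cells of the colon often express them as well.

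The ELR genes lie together on chromosome 4, and CXCL1, CXCL2 and CXCL3 are close copies. Their coding sequences are shown over the same 75 bases because the likeness bears on how far reads can tell them apart. Bases 94 to 168 of the coding sequence are printed for CXCL1, CXCL2 and CXCL3 and bases 67 to 141 for CXCL8, from the GENCODE 29 transcripts. Capitals mark the codons of the ELR motif.
CXCL1: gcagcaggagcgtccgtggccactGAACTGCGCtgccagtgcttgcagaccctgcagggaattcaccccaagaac
CXCL2: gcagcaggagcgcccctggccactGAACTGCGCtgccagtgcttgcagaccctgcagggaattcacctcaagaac
CXCL3: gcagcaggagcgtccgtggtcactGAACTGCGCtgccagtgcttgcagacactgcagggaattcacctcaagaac
CXCL8: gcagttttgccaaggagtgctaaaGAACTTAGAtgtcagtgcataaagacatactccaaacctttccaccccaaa

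Over the whole coding sequence, CXCL1 and CXCL2 were identical at 93.5% of aligned bases, CXCL1 and CXCL3 at 90.7%, and CXCL2 and CXCL3 at 94.4%. The longest run of identical bases that the transcripts shared was 77 for CXCL1 and CXCL2, 55 for CXCL1 and CXCL3, and 97 for CXCL2 and CXCL3. These runs are shorter than the reads of 150 nt. CXCL8 matched CXCL1 at 50.3% of aligned bases, with a longest shared run of 10. The sources used here do not say how the authors treated reads that fit more than 1 copy, so the split among CXCL1, CXCL2 and CXCL3 is uncertain.

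Promoters are shown for the 4 ELR genes with measured levels, which share a short NF-kB motif. The 110 bases directly before the RefSeq start are printed on the strand of the gene, from the RefSeq promoter table on GRCh38.p14, which held 6 of the 9 genes. RefSeq starts can differ from the GENCODE gene ends given further on. Capitals mark GGAATTTCC, a form of the NF-kB site.
CXCL1, chr4:73869283-73869392, plus strand: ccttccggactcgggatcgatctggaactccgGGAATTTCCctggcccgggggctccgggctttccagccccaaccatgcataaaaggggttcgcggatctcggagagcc
CXCL2, chr4:74099196-74099305, minus strand: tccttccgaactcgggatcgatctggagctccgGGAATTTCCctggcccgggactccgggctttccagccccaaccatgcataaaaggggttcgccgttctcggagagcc
CXCL3, chr4:74038690-74038799, minus strand: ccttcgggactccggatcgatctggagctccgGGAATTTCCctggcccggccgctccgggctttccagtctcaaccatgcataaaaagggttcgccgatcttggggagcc
CXCL8, chr4:73740459-73740568, plus strand: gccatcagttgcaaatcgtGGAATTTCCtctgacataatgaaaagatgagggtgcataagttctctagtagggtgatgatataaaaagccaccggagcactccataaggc

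Within 250 bases before the start, on both strands, GGAATTTCC was present in 5 of the 6 promoters, those of CXCL1, CXCL2, CXCL3, CXCL5 and CXCL8, and in 0.413% of all 35116 promoters. Counted from the start, its first base lay at −78 in CXCL1, −77 in CXCL2, −78 in CXCL3 and −91 in CXCL8. The looser form GGNNTTTCC, which includes the first, was present in all 6 promoters, CCL20 among them, and in 5.49% of all promoters. An AP-1 site, TGANTCA, was found in 1 of the 6, CXCL8, and in 6.57% of all promoters. The TATA box TATAAA was found in CXCL8 and CCL20 and in 10.7% of all. CXCL16, IL18 and LIF were not among the 6. A match says only that these letters are present, and binding was not measured.

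All 8 genes with a row had a lower mean level in the siMTA1 libraries than in the control libraries, at 27.2% to 93.6% of the control mean. Levels are FPKM, the fragments of a gene scaled to its length and to the size of the library. CXCL1, CXCL8, CXCL16, IL18 and LIF, 5 of the 8, averaged 1 FPKM or more across the libraries. They were tested with limma on log2(FPKM + 1) together with all other genes of that level, 12141 in all. The added 1 understates the log2 fold changes, most at low levels. A gene was called changed at a Benjamini-Hochberg adjusted p under 0.05. CXCL1, CXCL8 and CXCL16 were called lower, 3 of 5, where 12.1% of all tested genes were called lower. The genes were chosen with earlier results of these data known, so such counts only describe them. None of the 5 was called higher, where 6.13% of all tested genes were. The median log2 fold change, siMTA1 over control, was −0.34 over the 5 genes and −0.05 over all tested genes. Every siMTA1 value lay below every control value in 4 of the 5, and in 25.9% of all tested genes. In bulk RNA, fewer expressing cells and less RNA per cell cannot be told apart.

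**Figure D1:**
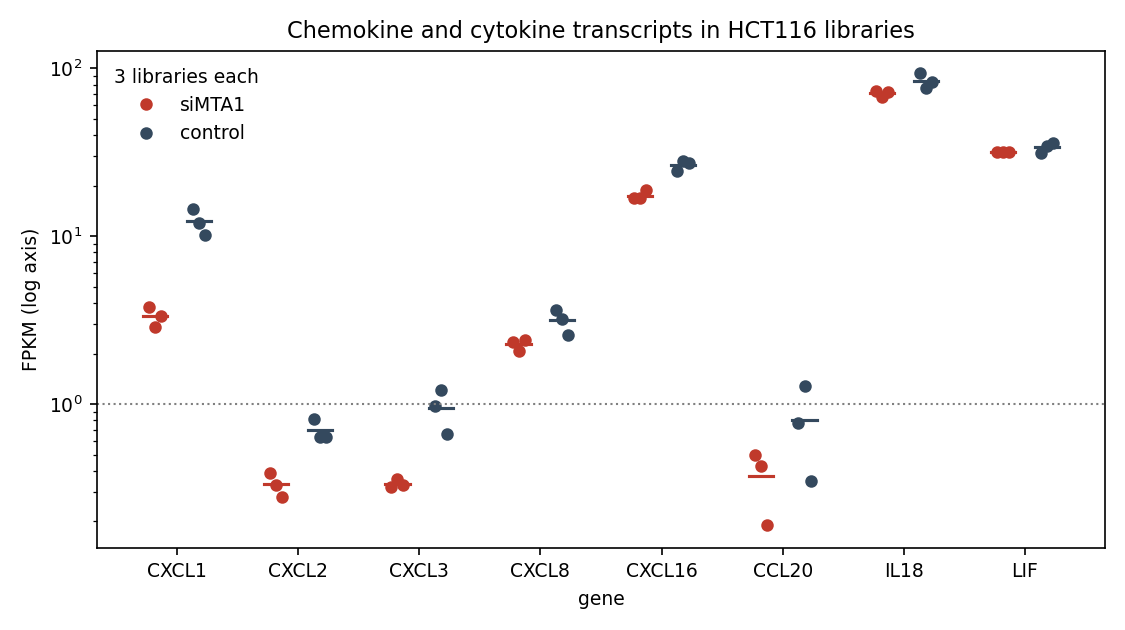
FPKM of the 8 genes in each of 3 siMTA1 and 3 control libraries, on a log axis, with short bars at the group means and a dotted line at the level of 1 FPKM required for the main test. The siMTA1 points lie below the control points without overlap for every gene except CCL20 and LIF.

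MTA1 itself stood at 44.55, 43.98 and 47.97 FPKM in siMTA1 libraries 1, 2 and 3, against 65.90, 67.61 and 66.74 FPKM in control libraries 1, 2 and 3. Its siMTA1 mean was 68.2% of the control mean (log2 fold change −0.54, limma adjusted p = 0.000376). The low FPKM values move in steps, and the steps imply a depth of 57000000 to 66500000 fragments for siMTA1 libraries and 43000000 to 64800000 fragments for control libraries. Of 11 colon epithelial markers, 7 were tested, 1 was higher (CDH1) and 2 lower (KRT8 and KRT18). Of all tested genes, 6.13% were higher and 12.1% lower, so these few calls only describe the list. The summed level of the markers was 5661 to 6306 FPKM in siMTA1 libraries against 6560 to 6874 FPKM in control libraries. The epithelial genes EPCAM and KRT19 were abundant in both groups, whereas LGALS4, VIL1, CDX1 and CEACAM5 of the same list were near 0 in both. The 10 leukocyte markers with a row summed to 0.75 to 0.85 FPKM in siMTA1 libraries against 0.57 to 0.69 FPKM in control libraries, and none reached 1 FPKM. The neutrophil gene S100A8 and the fibroblast genes DCN and PDGFRA were listed at 0 in all 6 libraries. Fibroblast markers summed to 2.17 to 2.76 FPKM in siMTA1 libraries against 1.94 to 2.01 FPKM in control libraries, nearly all of it COL1A1. Endothelial markers summed to 0.15 to 0.29 FPKM in siMTA1 libraries against 0.13 to 0.25 FPKM in control libraries. The part of these markers in the differences of the chemokines was not tested.

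CXCL1, an attractant of neutrophils first known as a melanoma growth stimulator, showed the largest difference of the 5 tested genes. CXCL1 (ENSG00000163739.4) lies at chr4:73869393-73871242 of GRCh38, on the plus strand. Its level was 3.80, 2.86 and 3.36 FPKM in siMTA1 libraries 1, 2 and 3, against 14.59, 12.01 and 10.22 FPKM in control libraries 1, 2 and 3. The groups were far apart: the highest siMTA1 library was below the lowest control library, control library 3. The means were 3.34 ± 0.470 FPKM with siMTA1 and 12.3 ± 2.20 FPKM in control (SD, n = 3 each), and 27.2% of the control level remained. The log2 fold change was −1.61 (SE 0.12, 95% interval −1.87 to −1.34, limma adjusted p = 5.02e-05). With 0.1 added to FPKM in place of 1, it was −1.84. The exact permutation p, two-sided, was 0.1, and no smaller p can be reached with 3 libraries on each side. The levels correspond to 246 to 281 fragments in siMTA1 libraries and 813 to 875 in control libraries, if GENCODE 29 exon lengths apply. CXCL1 ranked at percentile 54.7 of the tested genes by mean level, so it was neither rare nor abundant. The call held when each library was left out in turn (adjusted p between 5.04e-05 and 0.000549).

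CXCL2 and CXCL3, which code for macrophage inflammatory proteins that attract neutrophils through CXCR2, were much less abundant than CXCL1 and lay below the level required for the main test. CXCL2 (ENSG00000081041.8, chr4:74097035-74099293, minus strand) stood at 0.39, 0.33 and 0.28 FPKM in siMTA1 libraries 1, 2 and 3, against 0.81, 0.64 and 0.64 FPKM in control libraries 1, 2 and 3. CXCL3 (ENSG00000163734.4, chr4:74036589-74038807, minus strand) stood at 0.32, 0.36 and 0.33 FPKM in siMTA1 libraries 1, 2 and 3, against 0.97, 1.22 and 0.66 FPKM in control libraries 1, 2 and 3. Neither gene had overlapping groups, and the 3 siMTA1 values of CXCL3 were close together while its control values spread widely. The means of CXCL2 were 0.333 ± 0.0551 FPKM with siMTA1 and 0.697 ± 0.0982 FPKM in control, and those of CXCL3 were 0.337 ± 0.0208 FPKM with siMTA1 and 0.950 ± 0.281 FPKM in control (SD, n = 3 each). That is 47.9% of the control level for CXCL2 and 35.4% for CXCL3. The exact permutation p was 0.1 for each.

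When the minimum was lowered to a mean of 0.1 FPKM, 18282 genes were tested and 6.15% of them were called lower. CXCL2 then had a log2 fold change of −0.35 (SE 0.07, limma adjusted p = 0.0221) and CXCL3 of −0.53 (SE 0.10, limma adjusted p = 0.0188). On this scale the change of such low genes is understated. Both calls were lost with no minimum at all (adjusted p = 0.0914 for CXCL2 and 0.130 for CXCL3). At the 0.1 FPKM minimum, the CXCL2 call was also lost without siMTA1 library 2 (adjusted p = 0.0733) or 3 (0.0642) and without control library 1 (0.0573) or 2 (0.0629). The CXCL3 call was lost without siMTA1 library 1 (adjusted p = 0.0567), 2 (0.0609) or 3 (0.0535) and without control library 1 (0.0519) or 2 (0.0556). The implied fragments were few: 26 to 33 for CXCL2 and 40 to 53 for CXCL3 in siMTA1 libraries, against 52 to 62 for CXCL2 and 93 to 152 for CXCL3 in control libraries.

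Because reads could have been split among the 3 copies, their FPKM values were also added. The sum of CXCL1, CXCL2 and CXCL3 was 4.51, 3.55 and 3.97 in siMTA1 libraries 1, 2 and 3, against 16.37, 13.87 and 11.52 in control libraries 1, 2 and 3. The siMTA1 mean of the sum, 4.01 ± 0.481 FPKM, was 28.8% of the control mean, 13.9 ± 2.43 FPKM (SD, n = 3 each). How reads were assigned among the copies was not tested, and the sum rests mostly on CXCL1. CXCL1 made up 80.6% to 84.6% of the sum in siMTA1 libraries and 86.6% to 89.1% in control libraries.

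CXCL8, a major neutrophil attractant in human tissue and a gene that mice lack, was lower by a smaller margin. CXCL8 (ENSG00000169429.10, chr4:73740506-73743716, plus strand) stood at 2.35, 2.06 and 2.41 FPKM in siMTA1 libraries 1, 2 and 3, against 3.64, 3.22 and 2.59 FPKM in control libraries 1, 2 and 3. The groups did not overlap, but control library 3 lay close to siMTA1 library 3. The means were 2.27 ± 0.187 FPKM with siMTA1 and 3.15 ± 0.529 FPKM in control (SD, n = 3 each), and 72.2% of the control level remained. The log2 fold change was −0.34 (SE 0.10, 95% interval −0.55 to −0.12, limma adjusted p = 0.0380). With 0.1 added to FPKM in place of 1, the log2 fold change was −0.44. This call was near the threshold. It was lost without siMTA1 library 1 (adjusted p = 0.0714), 2 (0.126) or 3 (0.0575) and without control library 1 (0.0958) or 2 (0.110), and held without control library 3 (0.0128). It was also lost with quantile normalization (adjusted p = 0.0634), upper-quartile scaling (0.0567) and median centring (0.0736). The fold change stayed negative throughout.

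CXCL1 was also low relative to CXCL8 in all 3 siMTA1 libraries. The ratio of their FPKM was 1.62, 1.39 and 1.39 in siMTA1 libraries 1, 2 and 3, against 4.01, 3.73 and 3.95 in control libraries 1, 2 and 3. The control libraries differed in CXCL1 but hardly in this ratio: CXCL1 and CXCL8 were both highest in control library 1 and both lowest in control library 3. The ratio averaged 1.47 ± 0.130 with siMTA1 and 3.90 ± 0.146 in control (SD, n = 3 each). Ratios of CXCL1 to 5 other genes were computed in the same way. CXCL1 over CXCL16 was 0.170 to 0.226 in siMTA1 libraries and 0.373 to 0.596 in control libraries. CXCL1 over IL18 was 0.0422 to 0.0522 in siMTA1 libraries and 0.124 to 0.158 in control libraries. The other ratios moved likewise. CXCL1 over LIF was 0.0908 to 0.120 in siMTA1 libraries and 0.286 to 0.466 in control libraries. CXCL1 over CXCL2 was 8.67 to 12.0 in siMTA1 libraries and 16.0 to 18.8 in control libraries. These 5 ratios did not overlap between the groups, and each gave an exact two-sided permutation p of 0.1, or 0.12 after Benjamini-Hochberg adjustment over the 6 ratios. All 6 ratios share CXCL1, which kept the smallest share of its control level among the 8 genes (27.2%). Lower ratios followed largely from that, so they are not separate results. CXCL1 over CXCL3 overlapped, at 7.94 to 11.9 in siMTA1 libraries and 9.84 to 15.5 in control libraries (exact permutation p = 0.3).

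**Figure D2:**
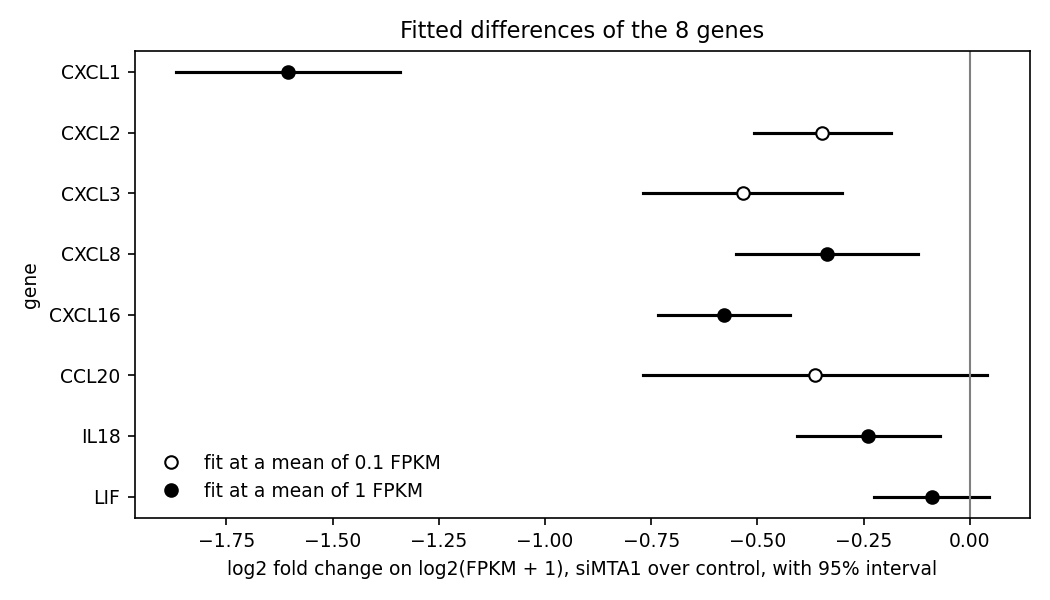
Log2 fold change of the 8 genes on the log2(FPKM + 1) scale, siMTA1 over control, with 95% intervals from limma. Filled points come from the fit at a mean of at least 1 FPKM and open points from the fit at 0.1 FPKM. The intervals of CCL20 and LIF include 0 and those of the other 6 genes do not.

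CXCL16 is unusual among chemokines in that it is made as a membrane protein with a chemokine domain on a mucin stalk. It is shed by metalloproteases, and it draws T cells that carry CXCR6. CXCL16 (ENSG00000161921.14, chr17:4733526-4739922, minus strand) stood at 16.82, 16.84 and 18.72 FPKM in siMTA1 libraries 1, 2 and 3, against 24.47, 27.91 and 27.37 FPKM in control libraries 1, 2 and 3. All siMTA1 values lay well below all control values. The means were 17.5 ± 1.09 FPKM with siMTA1 and 26.6 ± 1.85 FPKM in control (SD, n = 3 each), and 65.7% of the control level remained. The log2 fold change was −0.58 (SE 0.07, 95% interval −0.73 to −0.42, limma adjusted p = 0.000989). It held with each library left out (adjusted p between 0.000823 and 0.00785). MED11, a gene on the opposite strand at a mean of 4.54 FPKM, shares 85 exon bases with CXCL16, and the sources used here do not say whether counting used strand.

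CCL20 attracts dendritic cells and lymphocytes through CCR6 and marks the epithelium over lymphoid follicles of the gut. CCL20 (ENSG00000115009.11, chr2:227805739-227817564, plus strand) stood at 0.50, 0.43 and 0.19 FPKM in siMTA1 libraries 1, 2 and 3, against 0.77, 1.28 and 0.35 FPKM in control libraries 1, 2 and 3. The groups overlapped, since control library 3 lay below siMTA1 libraries 1 and 2. The means were 0.373 ± 0.163 FPKM with siMTA1 and 0.800 ± 0.466 FPKM in control (SD, n = 3 each, exact two-sided permutation p = 0.3). Between 18 and 46 fragments are implied in siMTA1 libraries and between 36 and 115 in control libraries. At the 0.1 FPKM minimum the log2 fold change was −0.36 (95% interval −0.77 to 0.04, limma adjusted p = 0.227). Leaving out control library 2 gave −0.18 (adjusted p = 0.516), and leaving out control library 3 gave −0.56 (0.0635). CCL20 did not pass in any of these fits, and its control values spread widely.

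IL18, a cytokine of the interleukin 1 family that waits in the epithelium as a precursor until caspase 1 cleaves it, was the most abundant of the 8 genes. IL18 (ENSG00000150782.11, chr11:112143251-112164117, minus strand) stood at 72.81, 67.82 and 71.82 FPKM in siMTA1 libraries 1, 2 and 3, against 93.24, 76.11 and 82.72 FPKM in control libraries 1, 2 and 3. The groups did not overlap, and control library 2 was the nearest to the siMTA1 values. The means were 70.8 ± 2.64 FPKM with siMTA1 and 84.0 ± 8.64 FPKM in control (SD, n = 3 each), or 84.3% of the control level. The log2 fold change of −0.24 (SE 0.08, 95% interval −0.41 to −0.07) did not pass after adjustment (limma adjusted p = 0.0534). It did pass without control library 2 (log2 fold change −0.31, adjusted p = 0.0431), and with the replicate number as a block (adjusted p = 0.0204). It did not pass with any other single library left out (adjusted p up to 0.163).

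LIF, a cytokine of the interleukin 6 family that signals through LIFR and IL6ST to STAT3, was not detectably different. LIF (ENSG00000128342.4, chr22:30240447-30246851, minus strand) stood at 31.57, 31.50 and 31.83 FPKM in siMTA1 libraries 1, 2 and 3, against 31.34, 34.25 and 35.76 FPKM in control libraries 1, 2 and 3. The siMTA1 values were almost equal to each other, and control library 1 lay below all of them. The means were 31.6 ± 0.174 FPKM with siMTA1 and 33.8 ± 2.25 FPKM in control (SD, n = 3 each, exact two-sided permutation p = 0.4). The log2 fold change was −0.09 (SE 0.06, limma adjusted p = 0.319), and its 95% interval ran from −0.23 to 0.05. Antisense genes LIF-AS1 and AC004264.1 share 92 and 175 exon bases with LIF, at means of 0.167 and 0.458 FPKM.

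By mean level over all 6 libraries the order was IL18, LIF, CXCL16, CXCL1, CXCL8, CXCL3, CCL20 and CXCL2. In control libraries LIF and CXCL16 had separate ranges, and so did every higher neighbour down to CXCL8, whereas CXCL3, CCL20 and CXCL2 overlapped. In siMTA1 libraries CXCL1 and CXCL8 were still separate, at 2.86 to 3.80 FPKM for CXCL1 and 2.06 to 2.41 FPKM for CXCL8, but much closer than in control libraries.

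**Figure D3:**
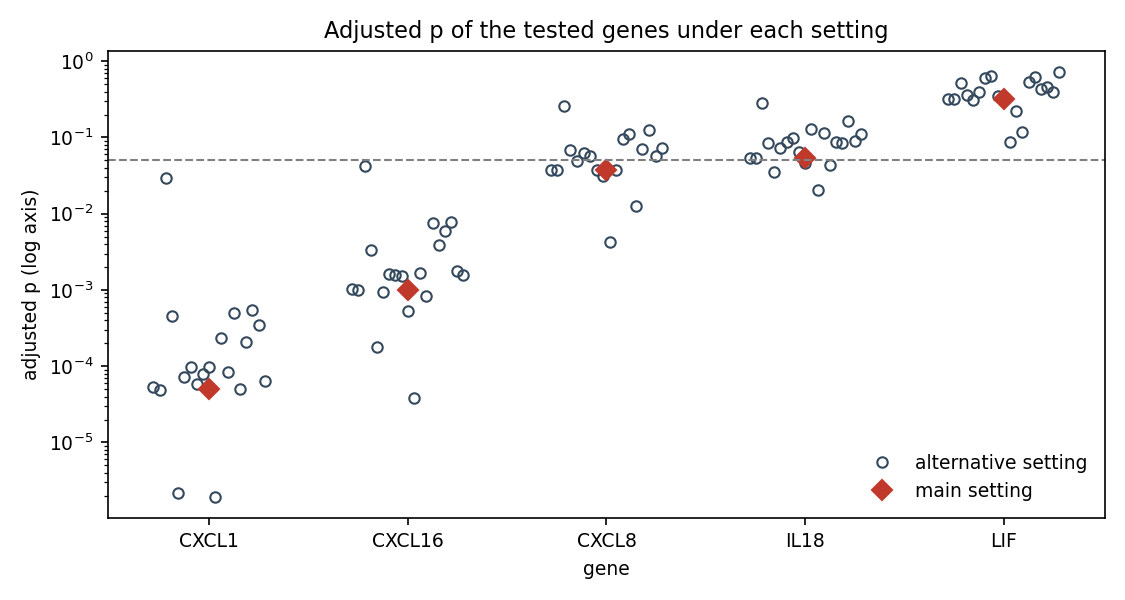
Limma adjusted p of the 5 tested genes under the main setting (diamonds) and the alternatives (circles), on a log axis, with a dashed line at 0.05. CXCL1 and CXCL16 stay under the line and LIF above it in every setting, whereas CXCL8 and IL18 fall on both sides.

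The 4 measured ELR genes span 358.8 kb of chromosome 4, and the surrounding genes were examined over 500000 bases on each side, a window chosen after values were seen. Of 19 other genes with a row there, 4 reached the level for testing. EREG, the growth factor epiregulin, stood at 27.42, 22.17 and 25.60 FPKM in siMTA1 libraries 1, 2 and 3, against 20.38, 17.66 and 18.14 FPKM in control libraries 1, 2 and 3. It was thus higher in every siMTA1 library (log2 fold change 0.40, SE 0.08, limma adjusted p = 0.0127), opposite in sign to the chemokines beside it. Its call was lost without control library 2 (adjusted p = 0.0529) and with no minimum level (0.152). AREG, the related growth factor amphiregulin, averaged 204.2 ± 15.7 FPKM with siMTA1 and 181.2 ± 14.4 FPKM in control (SD, n = 3 each) and did not pass (log2 fold change 0.17, adjusted p = 0.144). MTHFD2L, an enzyme gene of folate metabolism between CXCL2 and EREG, had a log2 fold change of 0.14 (adjusted p = 0.253), and ANKRD17, at the other end, of 0.00 (adjusted p = 0.967). CXCL1P, a processed pseudogene, was listed at 0 in all 6 libraries.

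**Figure D4:**
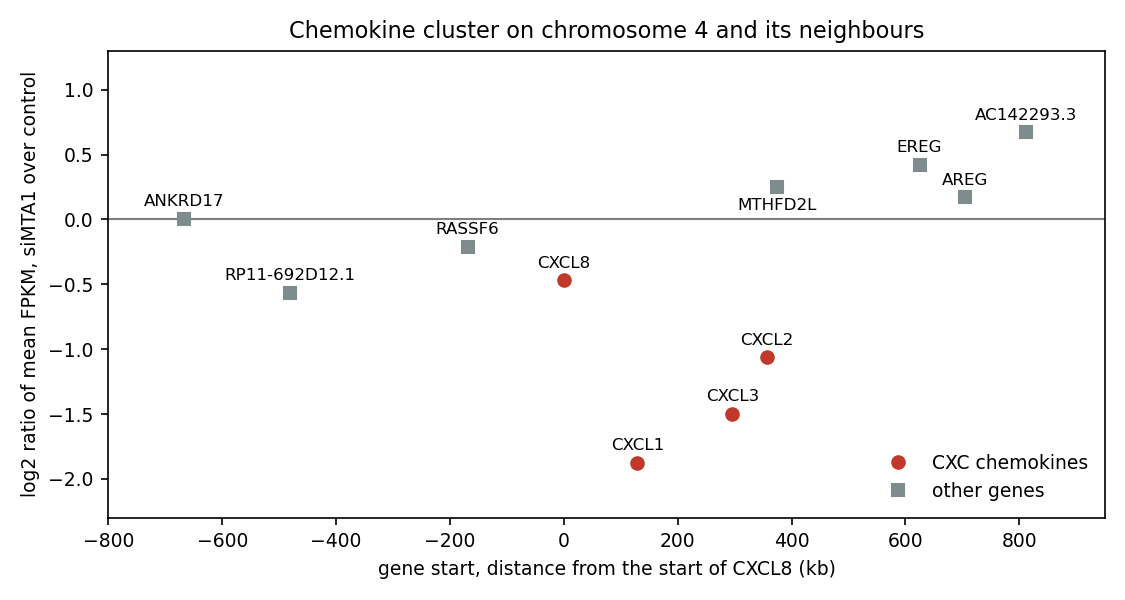
Log2 ratio of mean FPKM, siMTA1 over control, against distance from the CXCL8 start in kb, for the 4 CXC chemokine genes and the 7 neighbours with a mean of at least 0.4 FPKM. The chemokine points lie below 0, as do those of RASSF6 and RP11-692D12.1, and EREG and AREG on the right lie above it.

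Those other chemokine ligands and receptors that had a row were hardly present. Of 5 further relatives of the neutrophil chemokines, 1 had a row, CXCL17, at means of 0.0133 FPKM with siMTA1 and 0.0233 FPKM in control. None of the 6 other CXC, CX3C and XC chemokines or the 10 other CC chemokines with a row reached 1 FPKM. CCL5, a T cell attractant, was the most abundant of those at 0.160 FPKM with siMTA1 and 0.127 FPKM in control. The 18 chemokine receptors with a row, of 24 listed, summed to 0.77 to 0.85 FPKM in siMTA1 libraries and 0.52 to 0.71 FPKM in control libraries. CXCR6 and CCR6, the receptors of CXCL16 and CCL20, had no row and were not analysed. CXCR1 averaged 0.0467 FPKM with siMTA1 and 0.0633 FPKM in control, and CXCR2 0.0533 FPKM with siMTA1 and 0.0700 FPKM in control.

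Among interleukin 1 and interleukin 18 family members, their receptors and inflammasome genes, 11 of 30 genes with a row were tested, 4 were lower and 1 higher, with a median log2 fold change of −0.05. Of all tested genes, 12.1% were lower and 6.13% higher. IRAK1, a kinase downstream of these receptors, stood at 45.62, 48.79 and 52.60 FPKM in siMTA1 libraries 1, 2 and 3, against 61.15, 59.53 and 59.33 FPKM in control libraries 1, 2 and 3 (log2 fold change −0.29, limma adjusted p = 0.0134), and its call held with each library left out. CASP4, a caspase that senses bacterial lipopolysaccharide, averaged 20.9 ± 1.17 FPKM with siMTA1 and 25.5 ± 1.22 FPKM in control (SD, n = 3 each, log2 fold change −0.28, adjusted p = 0.0166). Its call was lost without siMTA1 library 2 (adjusted p = 0.0653) or control library 2 (0.0775). The adaptor gene MYD88 (log2 fold change −0.34, adjusted p = 0.0305) lost its call in 4 of 6 such fits, without control library 3 (0.0665) or siMTA1 library 1 (0.0869), 2 (0.0654) or 3 (0.0597). The pore protein gene GSDMD (−0.20, adjusted p = 0.0371) lost it in all 6 (adjusted p between 0.0511 and 0.128). IL18BP, a decoy that binds interleukin 18, was the gene called higher (0.27, adjusted p = 0.0402), and it lost its call in 5 of the 6, all but the fit without siMTA1 library 3 (adjusted p up to 0.130). With a library left out, 1 to 3 genes of the list were called in place of 5. Over all tested genes, such fits called 391 to 633 higher and 642 to 1191 lower, in place of 744 and 1463. IL18R1, a receptor chain for IL18, averaged 1.41 FPKM with siMTA1 and 1.38 FPKM in control. CASP1, which cleaves the precursor of IL18, was at 0.05 FPKM with siMTA1 and 0.09 FPKM in control, and the adaptor gene PYCARD was listed at 0 in all libraries.

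In the list around LIF and the interleukin 6 family, 18 of 26 genes were tested, 3 were lower and 2 higher, with a median of −0.04. These counts are near the 12.1% lower and 6.13% higher of all tested genes. IL6ST, the signalling receptor chain shared by LIF and its relatives, averaged 2.20 ± 0.188 FPKM with siMTA1 and 3.28 ± 0.159 FPKM in control (SD, n = 3 each, log2 fold change −0.42, limma adjusted p = 0.00439). CLCF1, another ligand of that family, averaged 3.73 ± 0.475 FPKM with siMTA1 and 6.19 ± 0.378 FPKM in control (SD, n = 3 each, −0.61, adjusted p = 0.00185). SOCS1, a feedback inhibitor of JAK kinases, averaged 1.80 ± 0.313 FPKM with siMTA1 and 0.890 ± 0.178 FPKM in control (SD, n = 3 each, 0.57, adjusted p = 0.00644). Its log2 fold change was 0.94 with 0.1 added to FPKM in place of 1. These 3 calls held with each library left out. The third lower gene, JAK2 (−0.27, adjusted p = 0.0420), lost its call in 5 of the 6 fits, all but the one without control library 3 (adjusted p up to 0.141). The list held 3 called genes in place of 5 without siMTA1 library 2 or 3 or control library 2. Calls over all tested genes fell in these fits too, to 642, 1015 and 655 lower and 424, 546 and 391 higher. LIFR, the chain through which LIF signals together with IL6ST, averaged 0.990 FPKM with siMTA1 and 0.947 FPKM in control, below the level for testing.

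Of 20 other epithelial cytokines, 5 were tested, 2 were lower and 0 higher, with a median of −0.23, where 12.1% of all tested genes were lower and 6.13% higher. GDF15, a stress cytokine, averaged 271.6 ± 13.8 FPKM with siMTA1 and 401.1 ± 16.1 FPKM in control (SD, n = 3 each, log2 fold change −0.56, limma adjusted p = 0.000473). The other, IL12A (−0.31, adjusted p = 0.0381), lost its call in 5 of the 6 fits with a library left out, all but the one without siMTA1 library 3 (adjusted p up to 0.126). Of 12 sheddases and chemokine-processing proteases, 7 were tested, 1 was higher and 0 lower, with a median of 0.03, against the same shares of all tested genes. That gene was DPP4, a peptidase that trims the amino end of chemokines, at 16.93, 16.33 and 17.93 FPKM in siMTA1 libraries 1, 2 and 3, against 9.26, 8.98 and 8.77 FPKM in control libraries 1, 2 and 3 (log2 fold change 0.85, adjusted p = 3.53e-05). The list had 2 called genes without control library 3, where 633 of all 12127 tested genes were higher. ADAM10, a metalloprotease that sheds CXCL16, had a log2 fold change of 0.18 (adjusted p = 0.0878), and ADAM17 of 0.03 (adjusted p = 0.751).

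Of 25 NF-kB subunits, kinases and inhibitors, 24 were tested, 7 were lower and 0 higher, where 12.1% of all tested genes were lower and 6.13% higher. The median log2 fold change was −0.11. MALT1, a protease that relays receptor signals to NF-kB, had a log2 fold change of −1.08 (8.94 ± 0.560 FPKM with siMTA1, 20.0 ± 1.05 FPKM in control, SD, n = 3 each). NFKBIA, an inhibitor that NF-kB induces, had a log2 fold change of −0.60 and NFKB1, which codes for the p50 subunit, of −0.38 (adjusted p = 0.00403), while NFKB2, the most abundant of the list, stood at 0.00 (adjusted p = 0.985). BIRC3 was also lower (log2 fold change −0.70, limma adjusted p = 0.00225), and its call held with each library left out. The number of called genes in this list was 4 without control library 2, where 655 of all 12136 tested genes were lower. It was 5 with quantile normalization, upper-quartile scaling or median centring, where 895, 939 and 802 of all tested genes were lower. It was 11 with array weights, where 2615 were lower, against 1463 in the main fit. Among 15 regulators of AU-rich mRNA decay, all tested, 1 was higher and 1 lower, with a median of −0.07, near the 6.13% higher and 12.1% lower of all tested genes. ZFP36, which binds AU elements and speeds decay of chemokine messages, averaged 21.7 ± 0.623 FPKM with siMTA1 and 14.6 ± 2.03 FPKM in control (SD, n = 3 each, log2 fold change 0.55, limma adjusted p = 0.00379). RC3H2 (−0.22, adjusted p = 0.0445) lost its call in 5 of the 6 fits, all but the one without siMTA1 library 1 (adjusted p up to 0.138). Whether any of these genes has a part in the lower chemokine levels was not tested.

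**Figure D5:**
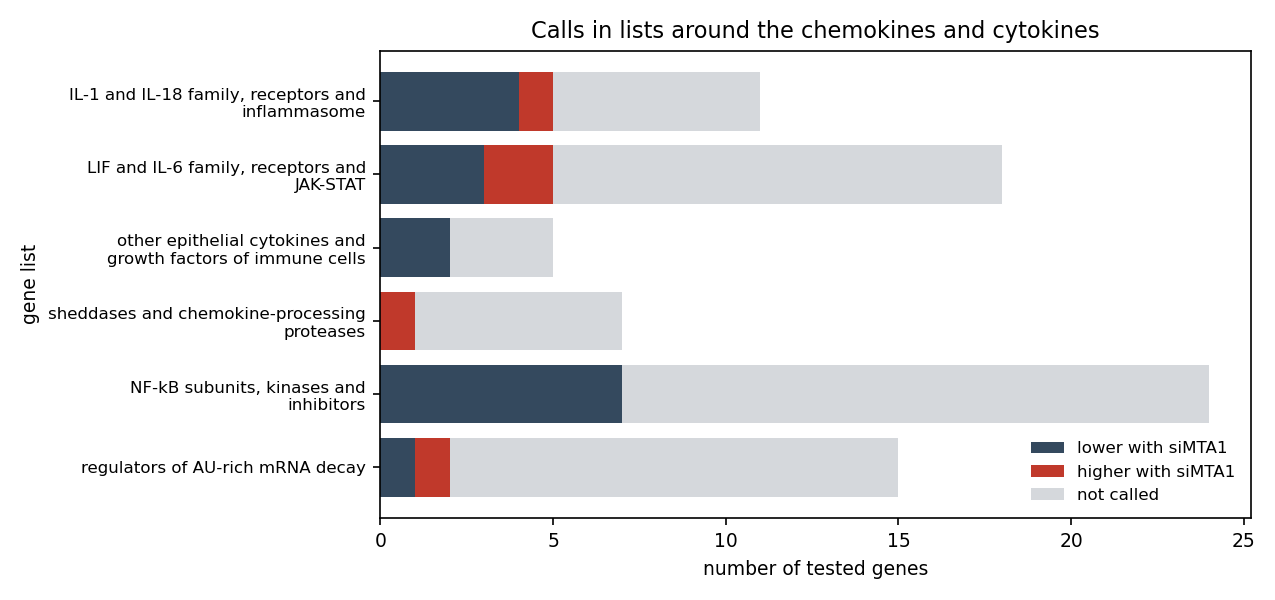
Number of tested genes called lower, called higher or not called with siMTA1 in 6 gene lists around the chemokines and cytokines, as stacked bars from 0. The NF-kB list, which has the most tested genes, has 7 of 24 lower and 0 higher. Of all tested genes, 12.1% were lower and 6.13% higher.

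The tested genes whose profile over the 6 libraries was nearest to the mean profile of CXCL1 and CXCL8 were found by Euclidean distance on centred log2(FPKM + 1). They were F3, or tissue factor (distance 0.194), the kinase gene PLK2 (0.284), EHF, an epithelial ETS transcription factor (0.310), MALT1 (0.316) and ARHGAP29, a GTPase activating protein (0.316). F3 averaged 30.2 ± 1.96 FPKM with siMTA1 and 63.7 ± 4.64 FPKM in control. EHF averaged 20.9 ± 0.553 FPKM with siMTA1 and 38.3 ± 1.52 FPKM in control (SD, n = 3 each). All 5 were lower with siMTA1, which the choice of profile fixes.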

How the data were processed

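PolyA RNA was sequenced as directional paired-end libraries, per the labels' protocols, and the submitters' processing notes name cutadapt, TopHat2, edgeR and GRCh38, without versions or roles. The authors deposited 1 table of FPKM, printed to 2 decimals. Their counter, gene lengths and annotation are not given in the labels or notes, and no counts were used. Columns were matched to samples by name. The planned count test was replaced by limma 3.58.1 in R 4.3.3, with an empirical Bayes fit and intensity trend on log2(FPKM + 1), two-sided, without covariates, on genes that averaged 1 FPKM or more. P-values were adjusted over all tested genes by Benjamini and Hochberg. The test was tried on simulated data. Single values were compared by exact permutation. Depth was estimated from genes under 150 bases, where 95.2% to 97.6% of low values were whole within 0.05 of a fragment. Coordinates, lengths and coding sequences came from GENCODE 29, which held 35749 of the gene identifiers, and promoters from RefSeq. Python 3.11.15 and pandas 2.3.3 tabulated results. The members and lists were chosen with earlier results of these data known. Named genes were the members, MTA1, up to 4 called genes by adjusted p and the most abundant gene of each list, and the 5 nearest profiles. ADAM9, HNRNPD, CCR10 and CXCL11 fell under this rule as most abundant genes and are not described here. IL18BP, JAK2, IL18R1, CASP1, PYCARD, LIFR, ADAM10, ADAM17, CXCR1, CXCR2 and the neighbours on chromosome 4 were added after values were seen. Alternatives were other pseudocounts, filters, scalings and limma settings, a replicate block, and each library left out. 1 called gene of the list around LIF is not reported here.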

Additional observations from a re-analysis of the deposited data

How the results depend on the processing

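The log2 fold changes of CXCL1 (−1.84 to −1.48) and CXCL16 (−0.65 to −0.52) kept their direction and their call in the main and all 19 alternative settings, and LIF (−0.14 to −0.04) passed in none. The CXCL8 value was −0.34 but no longer passed with no filter (adjusted p = 0.260) or a mean of 0.1 FPKM (0.0695), and it was −0.30 with quantile normalization, −0.30 with upper-quartile scaling and −0.28 with median centring, a setting chosen after the data were seen. It had no value at a mean of 5 FPKM, where it was not tested. With 1 library left out (without replicate 1, 2 or 3 of either group), CXCL8 lay between −0.44 and −0.25 and IL18 between −0.31 and −0.16. IL18 stayed at −0.24 and passed at a mean of 5 FPKM (adjusted p = 0.0357), with robust limma (0.0468) and with the replicate block (0.0204), whereas it was −0.13 with array weights (0.131) and −0.19 with median centring (0.111), where it did not pass. Between 2 and 4 of the genes were called lower in each setting. Over all genes, 744 were higher and 1463 lower, against 262 and 310 with no filter, 1434 and 2615 with array weights, 1128 and 802 with median centring, 391 to 633 and 642 to 1191 with 1 library left out, 1011 and 895 with quantile normalization, and 1000 and 939 with upper-quartile scaling. The share of called genes that were lower was thus 66.3% as deposited, 47.0%, 48.4% and 41.6% under quantile, upper-quartile and median scaling. The cause was not tested. Replicate numbers are shared between the groups, and whether they pair the libraries was not settled. Deviations of same-numbered libraries correlated at 0.331, 0.0219 and 0.219 across genes. Those of unlike-numbered libraries correlated at −0.2765 to 0.0712, and control library 2 was nearest to siMTA1 library 3 (0.0712). With the number as a block, 992 genes were higher and 2039 lower. Library numbers, low levels of CXCL2, CXCL3 and CCL20 and 2 printed decimals limit precision.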
